A study of Arabidopsis thaliana with 27 samples.

Results

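The Arabidopsis thaliana mutants uvr8-6 and xpf-3 were compared with each other for their small RNAs over 3 UV-B doses. All 9 libraries of uvr8-6 and all 9 of xpf-3 were taken by their genotype label, 18 of the 27 libraries of the series, and the dose was kept as a block. The remaining 9 libraries are wild type and were not used, so a difference between the mutants does not say which of them departs from the wild type. Seedlings of both mutants were grown in complete darkness for 2.5 days on filter paper with 0.5x MS medium and 100 µM GA4, a gibberellin that all groups received, and were then left dark or given UV-B. The lower dose was 3000 µmol per square metre, about 5 min of exposure, and the higher dose 30000 µmol per square metre, about 45 min. Each of the 6 groups (xpf-3 dark, xpf-3 lower dose, xpf-3 higher dose, and the same for uvr8-6) held 3 libraries. The tissue is the etiolated hypocotyl, the stem of a dark-grown seedling, cut 6 hours after exposure according to the extraction protocol, whereas the series title gives 2 days. Nothing in the labels states that replicates came from different cultures, and p-values therefore measure the spread between these libraries, which may be technical. Only small RNAs were counted, so neither mutation can be seen in the data as a check of the labels. Cell type markers are likewise not measured. Of 8 miRNA loci of families known mainly from pollen, stomata or flowers, 1 (MIR845B) was at 0 in all 18 libraries. In bulk tissue, fewer cells of a type and less RNA per cell cannot be told apart.

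UVR8 is the UV-B photoreceptor of plants: on absorbing UV-B it signals through the COP1 ubiquitin ligase and the transcription factor HY5. XPF is the catalytic subunit of an endonuclease that cuts damaged DNA in nucleotide excision repair, the light-independent route that removes UV lesions. Plant miRNAs are short RNAs cut by DCL1 from hairpin transcripts and loaded mostly into AGO1, where they pair with messages, many of them for transcription factors of growth and hormone response, and bring about cleavage or lower translation.

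Mature sequences of the miRNAs that carry the comparison are given first, because several loci share them. They come from the RefSeq annotation of TAIR10.1, 5′ to 3′, with the seed (bases 2 to 8) in capitals. Those from miR472-3p to miR399b, miR396b-5p and miR169m belong to loci whose 9 libraries of uvr8-6 and 9 of xpf-3 did not overlap when scaled by miRNA counts. Beside the latter, miR396a-5p and miR169c are shown as sequences with the same seed. The miR167, miR164 and miR166 sequences belong to families with loci in both directions, and miR160a-5p to the locus whose genotype difference changed with dose.
miR472-3p: uUUUUCCUacuccgcccauacc
miR2939: uAACGCACaacacuaagccau
miR846-3p: uUGAAUUGaagugcuugaauu
miR822-5p: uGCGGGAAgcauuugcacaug
miR156b-5p: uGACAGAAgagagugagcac
miR390b-5p: aAGCUCAGgagggauagcgcc
miR399b: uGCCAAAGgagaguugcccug
miR396a-5p: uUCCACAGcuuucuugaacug
miR396b-5p: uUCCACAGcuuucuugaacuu
miR169m: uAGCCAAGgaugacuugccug
miR169c: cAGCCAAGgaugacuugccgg
miR167a-5p: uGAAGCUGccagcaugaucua
miR167d: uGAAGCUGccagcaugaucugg
miR164b-5p: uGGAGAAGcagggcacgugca
miR164c-5p: uGGAGAAGcagggcacgugcg
miR166a-3p: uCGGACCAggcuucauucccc
miR160a-5p: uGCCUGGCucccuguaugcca
The sequences of miR472-3p (chr1:4182143-4182164, minus strand), miR2939 (chr5:19567038-19567058, plus strand), miR846-3p (chr1:22577662-22577682, plus strand) and miR822-5p (chr5:897287-897307, minus strand) each had 1 exact match in the genome. By contrast miR156b-5p (chr4:15074945-15074964, plus strand) had 6 matches, the loci MIR156A to MIR156F, and miR169m (chr3:9878318-9878338, minus strand) had 7, the loci MIR169H to MIR169N. Identical pairs were miR390a-5p and miR390b-5p, miR399b and miR399c, miR167a-5p and miR167b-5p, miR164a-5p and miR164b-5p, and miR169b-5p and miR169c. The difference between miR396a-5p and miR396b-5p is G21U, that between miR164b-5p and miR164c-5p is A21G, and miR167d has A21G against miR167a-5p and 1 more base, with positions counted from 1 at the 5′ end. How reads with several matches were assigned is not given in the sources used here. A value for a locus that shares its mature sequence is therefore uncertain as a value for that locus alone. Sums over families are given for some of these loci. MIR472A lies on the same strand over an exon of the protein-coding gene AT1G12290, so counts at it can include fragments of that message. MIR822A lies opposite an intron of AT5G03553, and MIR156B overlaps an exon of the non-coding gene AT4G30975 on the same strand.

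Across doses, 38 of the 97 miRNA loci tested differed between the mutants, 39.2% of those tested, with 20 higher and 18 lower in uvr8-6 (edgeR's quasi-likelihood test, Benjamini-Hochberg adjusted p under 0.05). The other 226 of the 323 annotated miRNA loci had too few counts to be tested. Sets of higher loci with a shared seed were found in miR156, miR159, miR167 and miR390, and sets of lower loci in miR169, miR396 and miR399. The miR167 seed also had 1 lower locus, MIR167D. The calls of MIR396A and MIR159C in these sets were lost in 13 and 7 of 25 alternatives. In 9 loci, 9.28% of those tested, no library of uvr8-6 overlapped any of xpf-3: MIR2939, MIR472A, MIR846A, MIR156B and MIR390B were higher in uvr8-6, and MIR822A, MIR399B, MIR396B and MIR169M were lower. This holds for levels scaled by miRNA counts. When scaled by all small RNAs, 3 of 89 tested miRNA loci had no overlap on the higher side and 0 on the lower side. Of the 38, 37 had the same sign at all 3 doses, and 10 passed the test at each of the 3 doses. Those tests share 1 estimate of spread over all 18 libraries. Over all 97 loci, 54 had the same sign, these 37 included. The 38 were chosen by a test over the same libraries, so their shared sign is largely set by that choice. The difference exceeded 2-fold in 16 loci, 6 higher and 10 lower.

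**Figure D1:**
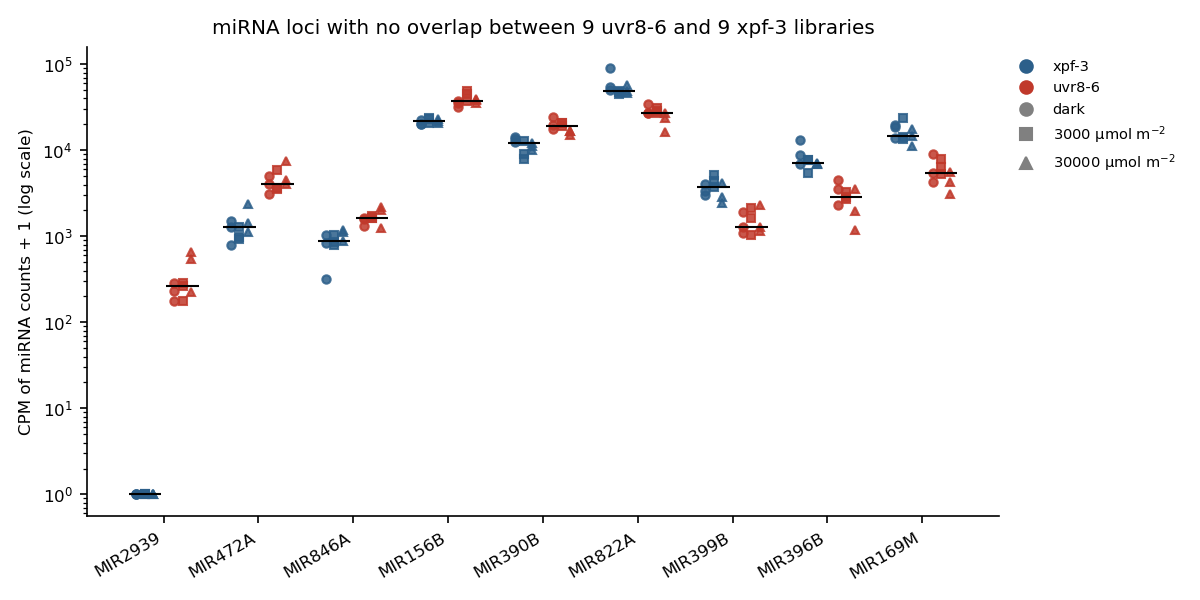
CPM of miRNA counts (TMM-scaled, plus 1, log scale) in each of the 18 libraries for the 9 miRNA loci without overlap between genotypes, with xpf-3 in blue, uvr8-6 in red, marker shapes for the dose and black lines for the medians of 9 libraries. MIR2939 had 0 counts in every xpf-3 library, and MIR822A, MIR399B, MIR396B and MIR169M lie lower in every uvr8-6 library.

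Levels of miRNA loci are given as CPM of a library's miRNA counts after TMM scaling, and a log2 difference is uvr8-6 minus xpf-3 with its standard error (SE). The miRNA counts behind them ranged from 20519 to 58106 per library, with a median of 34370 in uvr8-6 and 43681 in xpf-3, and their part in the differences was not tested. MIR472A, whose miRNA cuts messages of NBS-LRR immune receptors and starts secondary siRNAs from them, was at 799, 1287 and 2362 CPM (lowest, median and highest of 9 libraries) in xpf-3. In uvr8-6 it was at 3126, 4108 and 7600 CPM. The lowest uvr8-6 library thus lay above the highest of xpf-3. The log2 difference was 1.83 ± 0.19 (adjusted p = 1.08e-06, edgeR), or 3.55-fold higher in uvr8-6, and it was 1.77 in the dark, 2.02 after the lower dose and 1.70 after the higher dose.

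MIR2939 was detected in uvr8-6 alone, with 4 to 23 counts in each of its 9 libraries and 101 counts in all, against 0 in all 9 libraries of xpf-3. Taken against a floor of 3 counts over the 9 xpf-3 libraries, its level was at least 41.2-fold higher in uvr8-6 (adjusted p = 1.63e-05, edgeR). The limit covers counting error only. It was a scarce miRNA, with a median of 265 CPM in uvr8-6. The reverse case, MIR169I, had 0 counts in uvr8-6 and 70 counts in 5 of the 9 libraries of xpf-3, at least 19.1-fold lower in uvr8-6 (adjusted p = 0.0244, edgeR), but its groups overlapped at 0. That call was lost with DESeq2, with a replicate block within dose, and without either replicate 1 of xpf-3 in the dark or replicate 2 of xpf-3 at the higher dose, at an adjusted p of up to 0.0641.

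The miR156 loci, which restrain SPL transcription factors and hold the plant in its juvenile phase, were higher in uvr8-6 at 5 of 6 tested MIR156 loci. MIR156B was at 20018, 22104 and 23563 CPM in xpf-3 and at 31794, 37850 and 48742 CPM in uvr8-6. These ranges did not overlap, and the log2 difference was 0.83 ± 0.08 (adjusted p = 2.84e-07, edgeR). The log2 differences of MIR156C, MIR156D, MIR156E and MIR156F were 0.57, 0.70, 0.92 and 0.72. MIR156A, with the same mature sequence, was at a median of 27892 CPM in xpf-3 and 29785 CPM in uvr8-6, and its log2 difference of 0.17 ± 0.09 did not pass the test. Summed over the family, miR156 took a median of 131278 CPM in xpf-3 and 221077 CPM in uvr8-6, a log2 difference of 0.67 ± 0.09 (adjusted p = 5.45e-06, edgeR). Over the whole phase change list (miR156, miR157 and their counterpart miR172, which represses AP2-type factors), 5 of 12 tested loci rose, 1 fell (MIR172E), and the median log2 difference was 0.37 against -0.08 over all 97 loci. All 5 higher loci share 1 mature miR156 sequence. Of all 97 loci 20.6% were higher and 18.6% lower. The call of MIR172E (-1.01 ± 0.33, adjusted p = 0.0217, edgeR) was lost when libraries were scaled by all small RNAs, with a replicate block within dose (adjusted p = 0.0754), and without replicate 1 of xpf-3 in the dark, replicate 1 of xpf-3 at the lower dose or replicate 3 of uvr8-6 in the dark.

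Loci of auxin-related miRNAs differed in both directions. MIR390A and MIR390B encode the same miR390, which acts with AGO7 to release siRNAs against auxin response factors. MIR390B was at 7946, 12136 and 14423 CPM in xpf-3 and at 15039, 19205 and 24073 CPM in uvr8-6, again without overlap. Its log2 difference was 0.72 ± 0.11 (adjusted p = 3.81e-05, edgeR), that of MIR390A was 0.72 ± 0.15, and that of the family sum 0.79 ± 0.10. Over the list of auxin families, 5 of 12 tested loci rose, 2 fell, and the median log2 difference was 0.41, against -0.08 over all loci. Among the 5 higher, MIR390A and MIR390B share a mature sequence, as do MIR167A and MIR167B. Of all 97 loci 20.6% were higher and 18.6% lower.

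MIR167A and MIR167B share miR167, which targets the auxin response factors ARF6 and ARF8, and both rose strongly. MIR167A was at 155, 1141 and 4422 CPM in xpf-3 and at 3844, 7604 and 14272 CPM in uvr8-6. The groups overlapped in part: replicate 1 of xpf-3 at the lower dose (4422 CPM) and replicate 3 of xpf-3 at the higher dose (3962 CPM) lay above the lowest uvr8-6 library. The log2 difference was 2.31 ± 0.36 (adjusted p = 5.14e-05, edgeR) for MIR167A and 2.10 ± 0.37 for MIR167B. MIR167D, whose miRNA has the same seed and another 3′ end, moved the opposite way: it was at a median of 7888 CPM in xpf-3 and 3353 CPM in uvr8-6, with overlapping groups and a log2 difference of -0.90 ± 0.21 (adjusted p = 0.00176, edgeR). The family sum was higher in uvr8-6 by 0.53 ± 0.16 on the log2 scale (adjusted p = 0.0101, edgeR), but not at every dose. In the dark its mean was 12163 CPM in uvr8-6 and 12474 CPM in xpf-3. After the lower dose the means were 11959 and 6081 CPM, and after the higher dose 15336 and 9802 CPM.

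The miR164 and miR166 families also held loci in both directions. MIR164C and MIR164B encode miR164, which targets NAC factors of organ boundaries and lateral roots, with a different last base. MIR164C was higher in uvr8-6 (log2 difference 0.69 ± 0.13, medians 4522 CPM in xpf-3 and 8014 CPM in uvr8-6), and MIR164B was lower (-1.41 ± 0.36, medians 1282 and 412 CPM). MIR164A, identical in mature sequence to MIR164B, differed by 0.84 and did not pass. The miR164 family sum was higher in uvr8-6 (0.45 ± 0.15, adjusted p = 0.0184, edgeR). MIR166A and MIR166B encode identical mature miR166, which targets HD-ZIP III factors of leaf polarity and vasculature. MIR166A was lower in uvr8-6 (-0.77 ± 0.14, medians 19423 CPM in xpf-3 and 11166 CPM in uvr8-6, adjusted p = 0.000234, edgeR) and MIR166B was higher (1.05 ± 0.30, medians 3995 and 9807 CPM, adjusted p = 0.00796, edgeR). Both passed the test although their mature sequences cannot be told apart, and the family sum did not pass it (-0.22 ± 0.10, adjusted p = 0.0631, edgeR).

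**Figure D2:**
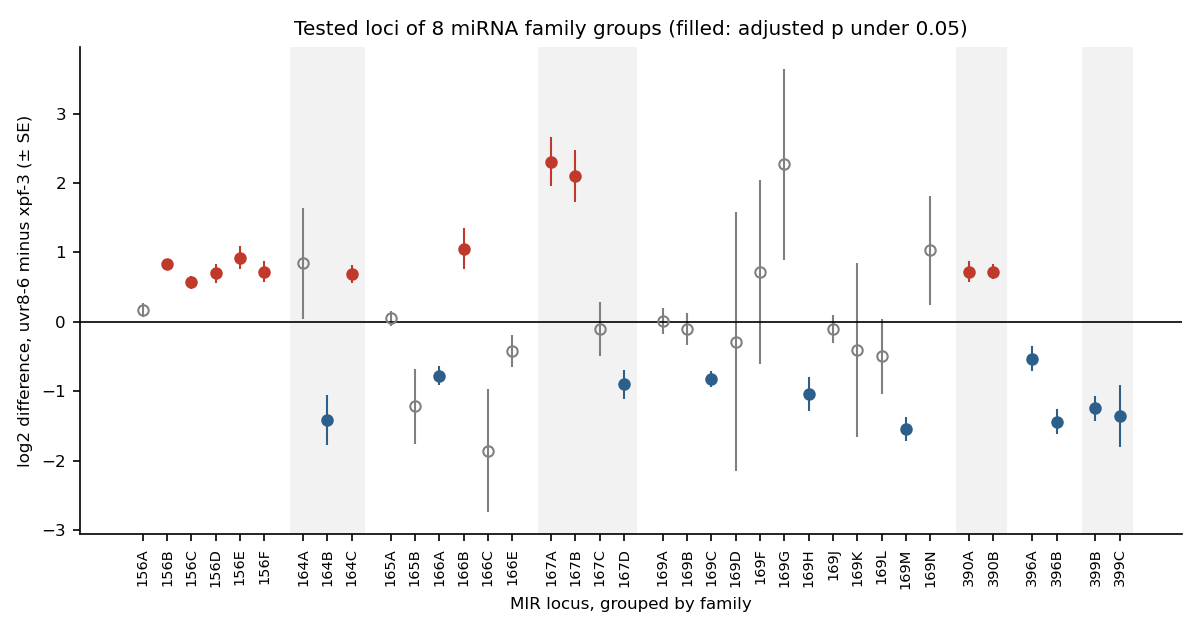
Log2 difference (uvr8-6 minus xpf-3, ± SE of the fit over 18 libraries) of tested loci of 8 family groups. Filled red and blue points passed the test as higher and lower in uvr8-6 and open grey points did not. MIR169I, with 0 counts in uvr8-6, and any locus with a very large SE are not drawn. Loci of miR164, miR166 and miR167 lie on both sides of 0, whereas the called loci of miR156 and miR390 lie above 0 and those of miR169, miR396 and miR399 below it.

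The miR169 family, which targets NF-YA subunits of CCAAT-binding factors, was the most abundant, with a summed median of 337377 CPM in xpf-3 and 252211 CPM in uvr8-6. Of its 13 tested loci 4 fell and none rose, with a median log2 difference of -0.28. MIR169M was at 11172, 14768 and 23451 CPM in xpf-3 and at 3110, 5381 and 9022 CPM in uvr8-6. No library overlapped, and the log2 difference was -1.54 ± 0.17 (adjusted p = 2.38e-06, edgeR). MIR169C, the most abundant locus of all, had a median of 159239 CPM in xpf-3 and 88035 CPM in uvr8-6 and a log2 difference of -0.82 ± 0.12, with overlapping groups. MIR169B has the same mature sequence as MIR169C, and its log2 difference of -0.10 ± 0.23 did not pass the test. MIR169H, identical in mature sequence to MIR169M, fell by 1.04 on the log2 scale, with medians of 2540 CPM in xpf-3 and 1170 CPM in uvr8-6. Besides MIR169I (above), the same sequence is shared by MIR169J, MIR169K, MIR169L and MIR169N. Their log2 differences were -0.10, -0.40, -0.50 and 1.03, and none passed. The family sum differed by -0.35 ± 0.10 (adjusted p = 0.00716, edgeR).

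MIR396B was at 5404, 7123 and 13068 CPM in xpf-3 and at 1198, 2882 and 4562 CPM in uvr8-6, without overlap. Its miRNA, miR396, represses growth-regulating factors (GRF). The log2 difference was -1.43 ± 0.19 (adjusted p = 1.11e-05, edgeR). MIR399B was at 2447, 3744 and 5092 CPM in xpf-3 and at 1022, 1280 and 2318 CPM in uvr8-6, a log2 difference of -1.24 ± 0.18 (adjusted p = 3.31e-05, edgeR) that again held without overlap. Its miRNA, miR399, lowers PHO2 and so promotes phosphate uptake. MIR399C, with the same mature sequence, differed by -1.36 ± 0.45 (adjusted p = 0.0216, edgeR), a call lost with scaling by all small RNAs, with a replicate block within dose, and without replicate 2 of xpf-3 at the higher dose or replicate 1 of uvr8-6 in the dark (adjusted p of up to 0.0754). The phosphate and sulfate list held these 2 tested loci of 16, both lower.

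MIR822A, a locus known only from Arabidopsis and its close relatives, was at 45465, 48460 and 89694 CPM in xpf-3 and at 16440, 27079 and 34471 CPM in uvr8-6. These ranges did not overlap, and its log2 difference was -1.01 ± 0.13 (adjusted p = 1.11e-05, edgeR). MIR846A, of the same young group, was higher in uvr8-6 in every library, at 322, 891 and 1191 CPM in xpf-3 against 1239, 1620 and 2172 CPM (log2 difference 0.90 ± 0.18, adjusted p = 0.000605, edgeR). Of the 14 tested loci of young families 1 rose and 2 fell (MIR822A and MIR824A), and the median log2 difference was -0.20. Over all 97 loci 20.6% were higher and 18.6% lower. MIR824A, whose miRNA targets AGL16 in the stomatal lineage, had medians of 10985 CPM in xpf-3 and 6735 CPM in uvr8-6 (-0.56 ± 0.11). With MIR172E, whose call was lost under 5 of 25 alternatives, it made up the 2 lower loci among the 3 tested of the families of other tissues, whose summed level was 9235 to 12413 CPM in xpf-3 and 5981 to 9979 CPM in uvr8-6. The part of other tissues in these differences was not tested.

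Among families of leaf and stem growth, 4 of 17 tested loci rose (MIR159B, MIR159C, MIR166B and MIR319C), 4 fell (MIR166A, MIR171A, MIR396A and MIR396B), and the median log2 difference was -0.21. These shares were near those over all loci (20.6% higher and 18.6% lower). MIR319C, whose miRNA targets TCP factors of leaf growth, differed by 0.76 ± 0.14, with medians of 832 CPM in xpf-3 and 1471 CPM in uvr8-6. MIR171A, whose miRNA targets GRAS factors of meristems, differed by -0.79 ± 0.20, with medians of 22326 and 11706 CPM. MIR159B, whose miRNA restrains GAMYB-type factors of gibberellin response, differed by 0.31 ± 0.08, with overlapping groups, a call lost with no low-count filter (adjusted p = 0.235, edgeR). The call of MIR159C (0.25 ± 0.09, adjusted p = 0.0307, edgeR) was lost without any of 4 libraries, replicates 2 and 3 of xpf-3 in the dark, replicate 2 of uvr8-6 in the dark and replicate 1 of uvr8-6 at the lower dose. It was also lost with scaling by all small RNAs, with no low-count filter and with a replicate block within dose (adjusted p of up to 0.414, edgeR). MIR396A lost its call in 13 of 25 alternatives.

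Loci of the silencing machinery and of light response were fewer. MIR168A and MIR162B, whose miRNAs target AGO1 and DCL1, differed by -0.35 ± 0.11 and -0.48 ± 0.15. Both calls were lost when libraries were scaled by all small RNAs (adjusted p = 0.200 and 0.0591, edgeR). That of MIR168A was also lost without replicate 3 of uvr8-6 in the dark. That of MIR162B was also lost without replicate 1 of xpf-3 at the lower dose or without replicate 1 or 2 of xpf-3 at the higher dose. MIR162A, identical in mature sequence to MIR162B, differed by 0.14 and did not pass. The miR162 family sum did not pass either (-0.17 ± 0.10, adjusted p = 0.150, edgeR), whereas that of miR168 did (-0.27 ± 0.09, adjusted p = 0.0137, edgeR). In the silencing list 2 of the 5 tested loci fell, with a median of -0.38. Of all 97 loci 39.2% differed, 20.6% higher and 18.6% lower. MIR858A, whose miRNA targets MYB regulators of flavonoid synthesis and which is known to respond to light and HY5, was at 204, 416 and 831 CPM in xpf-3 and at 99.7, 198 and 405 CPM in uvr8-6. The groups overlapped, and the log2 difference was -1.23 ± 0.33 (adjusted p = 0.00605, edgeR). It was the 1 called member of 4 tested in the light list (median -0.65) and the 1 tested member of the MYB list. Of the 6 tested triggers of secondary siRNAs 3 rose (MIR390A, MIR390B and MIR472A) and none fell, with a median of 0.26. MIR390A and MIR390B share a mature sequence. The copper list had 1 tested locus of 7, which did not pass.

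**Figure D3:**
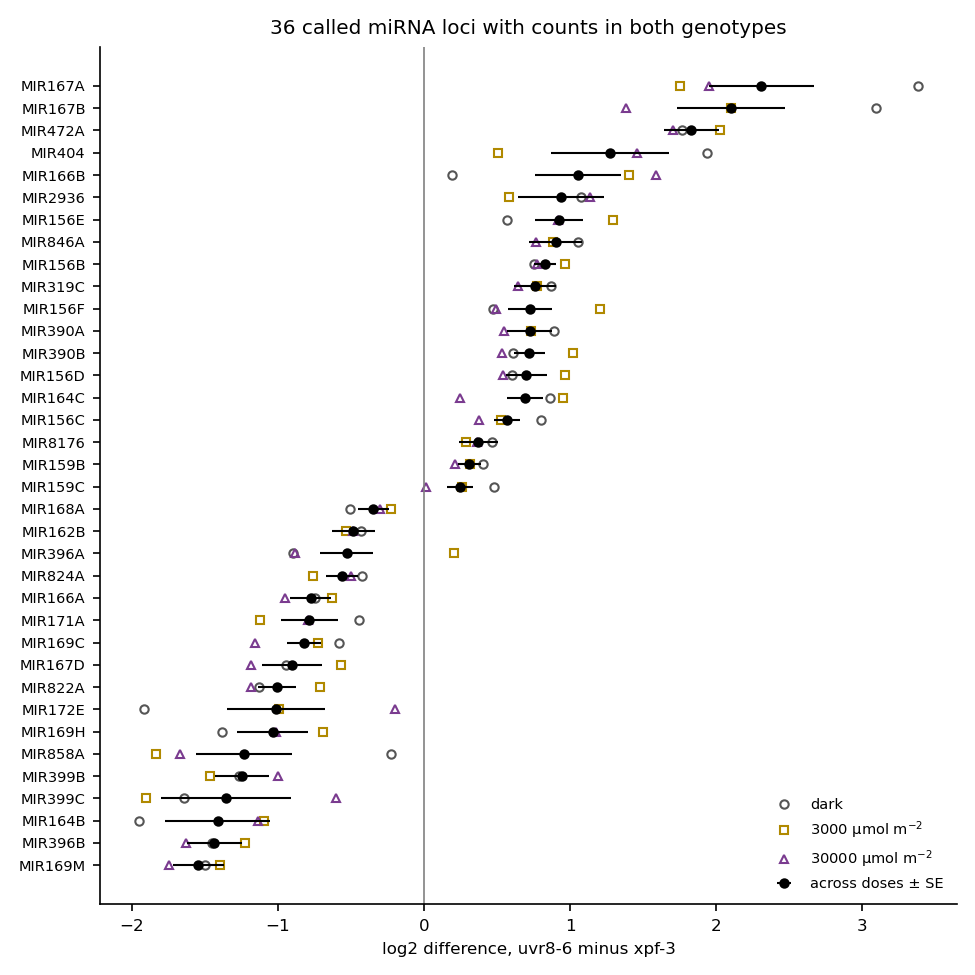
Log2 difference (uvr8-6 minus xpf-3) of the 36 called miRNA loci with counts in both genotypes. Black points with bars are the estimate across doses ± SE, and open symbols are the estimates at each dose. MIR396A is the 1 locus with an estimate on the other side of 0 at a single dose (0.21 after the lower dose, against -0.90 in the dark and -0.88 after the higher dose).

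Summed over families, 27 of 53 differed, 50.9% of those tested, with 15 higher (28.3%) and 12 lower (22.6%) in uvr8-6. The highest were MIR2939 (a bound, above), MIR472 (1.88 ± 0.19), MIR404 (1.32 ± 0.37) and MIR5020 (1.30 ± 0.32), and the lowest were MIR399 (-1.19 ± 0.18), MIR858 (-1.17 ± 0.23), MIR822 (-0.93 ± 0.12), MIR398 (-0.79 ± 0.31) and MIR172 (-0.72 ± 0.20). The family sums of MIR472, MIR390, MIR846 and MIR2939 did not overlap between genotypes on the higher side, and MIR399 did not on the lower side, 5 families or 9.43% of those tested. When libraries were scaled by all small RNAs, 16 families were called, 10 higher and 6 lower.

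At single doses fewer loci passed. At each dose 36, 37 and 39 loci (37.1%, 38.1% and 40.2%) had no overlap between the 3 libraries of each genotype. In the dark 25 of 97 differed (25.8%), 15 higher and 10 lower in uvr8-6; after the lower dose 23 (23.7%), 14 higher and 9 lower; and after the higher dose 17 (17.5%), 7 higher and 10 lower. Of these, 23, 21 and 16 were also called across doses. The split into higher and lower depended on the scaling: scaled by all small RNAs, they were 4 higher and 12 lower in the dark, 15 and 3 after the lower dose, and 5 and 3 after the higher dose, and the median log2 difference of all loci shifted by -0.25, 0.26 and 0.23. With RLE size factors the calls were 10 higher and 13 lower in the dark, and 10 and 5 after the higher dose. Across doses the shift with all small RNAs was 0.08, and the calls were 19 higher and 13 lower. The count in the dark was 15 without replicate 1 of xpf-3, that after the lower dose 14 without replicate 2 of uvr8-6, and that after the higher dose 10 without replicate 1 or replicate 3 of xpf-3 and 7 without replicate 2 of uvr8-6. The 10 loci that passed at all 3 doses were MIR2939, MIR472A, MIR156B, MIR390B and MIR167A on the higher side and MIR169M, MIR396B, MIR399B, MIR169C and MIR822A on the lower side.

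Whether the difference between the mutants itself changed with UV-B was tested against the dark. After the lower dose it did for 1 of 97 loci (1.03%), and after the higher dose for 0 (edgeR), with 12 loci at an unadjusted p under 0.05 in each test and 2 and 0 calls by DESeq2. The single call was MIR160A, whose miRNA represses the auxin response factors ARF10, ARF16 and ARF17. In the dark it was at 1568, 1974 and 2174 CPM in xpf-3 and at 2894, 4093 and 3472 CPM in uvr8-6, higher in uvr8-6 without overlap. After the lower dose it was at 4025, 3867 and 5819 CPM in xpf-3 and at 2891, 2627 and 2176 CPM in uvr8-6, lower without overlap. After the higher dose the values were 3919, 2540 and 2715 CPM in xpf-3 and 4212, 4709 and 2959 CPM in uvr8-6, with overlap. The log2 difference was thus 0.87 ± 0.24 in the dark and -0.83 ± 0.24 after the lower dose, and the change between them was -1.69 ± 0.34 (adjusted p = 0.0150, edgeR). The call was not made with RLE size factors (adjusted p = 0.070), with library sizes of all small RNAs (0.247) or without a low-count filter (0.118), at a log2 change of -1.11 under the scaling by all small RNAs. Leaving out 1 library gave values from -1.85 to -1.35, and the call was lost for 11 of the 18: replicate 1 of xpf-3 in the dark, replicates 1 and 3 of xpf-3 at the lower dose, all 3 of xpf-3 at the higher dose, replicates 2 and 3 of uvr8-6 in the dark, replicates 1 and 3 of uvr8-6 at the lower dose and replicate 1 of uvr8-6 at the higher dose (adjusted p of up to 0.154). MIR160B and MIR160C have the same mature miR160, and the family sum differed between genotypes across doses by -0.13 ± 0.10, which did not pass.

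No other locus passed in either test. Next to MIR160A, the smallest p-values for the lower dose were those of MIR396A, MIR447B, MIR157D and MIR8175. For the higher dose they were those of MIR169D, MIR169J, MIR162A, MIR158B and MIR157D. MIR396A is described here, with MIR167A and MIR166B, which were not among the smallest p-values. The genotype difference of MIR396A changed by 1.10 ± 0.33 between the dark and the lower dose (adjusted p = 0.204, edgeR): in the dark it was at 120302, 104326 and 115338 CPM in xpf-3 and at 86283, 45990 and 50165 CPM in uvr8-6, and after the lower dose at 42049, 49956 and 46313 CPM and at 56226, 48940 and 54411 CPM. The dark groups did not overlap and those of the lower dose did. Its call across doses (-0.53 ± 0.18, adjusted p = 0.0248, edgeR) was lost on leaving out any 1 of 11 libraries, replicates 1 and 3 of xpf-3 in the dark, all 3 of uvr8-6 in the dark and all 6 of both genotypes at the higher dose (adjusted p of up to 0.173 over all alternatives). In xpf-3, MIR167A was at 155, 493 and 836 CPM in the dark and at 2014, 1961 and 3962 CPM after the higher dose. Its genotype difference was 3.38 in the dark and 1.95 after the higher dose. That change of -1.43 ± 0.78 did not pass (adjusted p = 0.498, edgeR). For MIR166B the genotype difference was 0.19 in the dark, 1.40 after the lower dose and 1.59 after the higher dose, and its change of 1.40 ± 0.64 between the dark and the higher dose did not pass either (adjusted p = 0.373, edgeR).

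**Figure D4:**
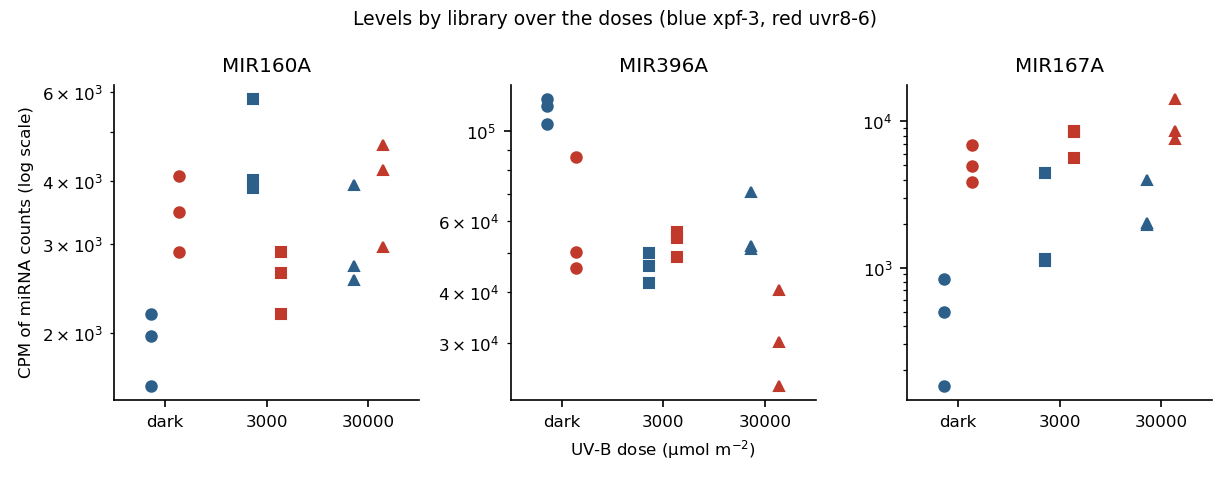
CPM of miRNA counts (log scale) of MIR160A, MIR396A and MIR167A in each library by UV-B dose, with xpf-3 in blue and uvr8-6 in red. For MIR160A uvr8-6 lies above xpf-3 in the dark and below it at 3000 µmol per square metre, and for MIR167A the uvr8-6 libraries lie above those of xpf-3 at each dose.

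The most abundant loci were not all different. Among the 10 highest by mean level, MIR169C, MIR156C, MIR156F, MIR156B, MIR822A and MIR396A passed the test. MIR158A, a young miRNA, was at 54705, 109084 and 182125 CPM in xpf-3 and at 59588, 97879 and 155225 CPM in uvr8-6, with broad overlap and a log2 difference of -0.08 ± 0.16. MIR169A differed by 0.02 ± 0.19, MIR169B by -0.10 ± 0.23 and MIR8175 by 0.35 ± 0.20, and none of these passed.

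All small RNAs together gave 681228 to 1970871 counts per library over 2071 annotated loci, mostly rRNA. The share of rRNA loci was 76.4% ± 3.71 (SD, n = 9) in xpf-3 and 80.6% ± 1.39 (SD, n = 9) in uvr8-6, higher in uvr8-6 by 4.26 percentage points (exact permutation test within doses, two-sided, p = 0.00175, adjusted p = 0.00612 over 7 shares) and in the mean at each of 3 doses. tRNA loci took 12.8% ± 3.08 in xpf-3 and 8.78% ± 1.64 in uvr8-6, a difference of -3.99 points (exact permutation test, adjusted p = 0.00612), lower at each dose. snRNA loci, which encode the spliceosome's RNAs, took 3.41% ± 0.462 and 2.83% ± 0.334 (exact permutation test, adjusted p = 0.0140). The shares of snoRNA loci (4.03% ± 0.942 in xpf-3 and 4.84% ± 0.908 in uvr8-6, adjusted p = 0.0686), miRNA loci (3.44% ± 1.02 and 2.93% ± 0.730, adjusted p = 0.229), plastid-encoded loci, which overlap the other classes (2.23% and 2.25%, adjusted p = 0.977) and mitochondrial loci (1.36% and 1.05%, adjusted p = 0.0516) did not pass the exact permutation test. Exact binomial 95% intervals of a share were within 0.0949 points of it in every library, a counting error well under the spread between libraries. With rRNA loci left out of the total, the share of snoRNA loci was higher in uvr8-6 by 7.69 points (exact permutation test, adjusted p = 0.0105). That of tRNA loci stayed lower by -8.39 points, and that of snRNA loci differed by 0.13 points (exact permutation test, adjusted p = 0.869). Mitochondrial rRNA loci were here left out of the mitochondrial counts too, so this share is another quantity than the mitochondrial share above. It was lower by -0.0295 points (exact permutation test, adjusted p = 0.0335).

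**Figure D5:**
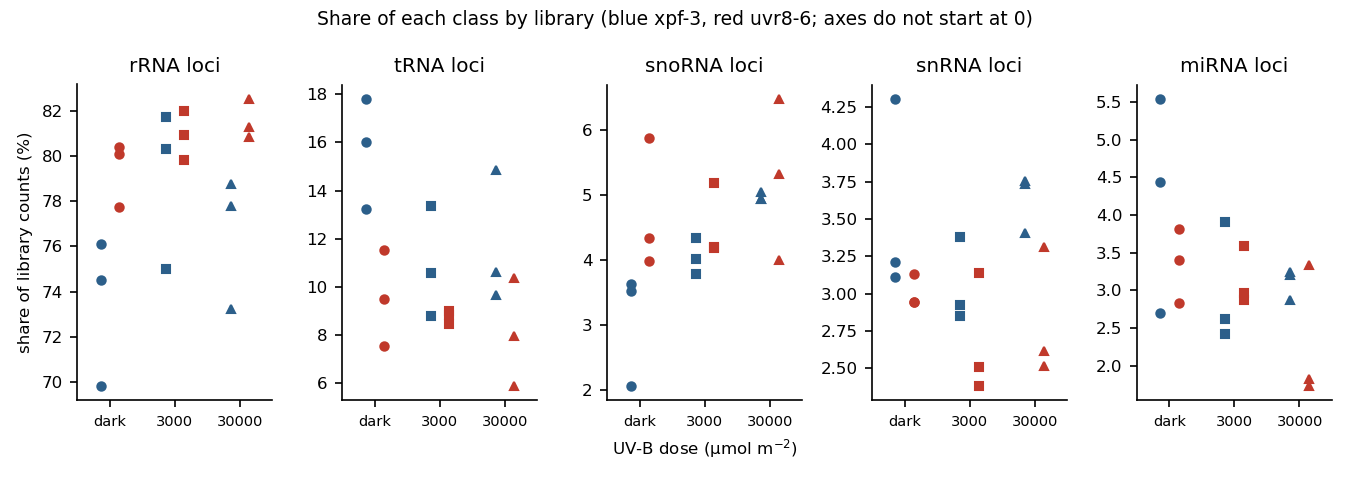
Share of each library's counts (%) taken by rRNA, tRNA, snoRNA, snRNA and miRNA loci, by UV-B dose, with xpf-3 in blue and uvr8-6 in red and axes that do not start at 0. In the dark all uvr8-6 libraries lie above all xpf-3 libraries for rRNA (means 79.4% and 73.5%) and below them for tRNA (9.52% and 15.7%).

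Over the loci of all classes, 284 of 1059 differed across doses, 26.8% of those tested, with 134 higher and 150 lower in uvr8-6 (edgeR's quasi-likelihood test on counts of all small RNAs). Levels here are CPM of all small RNA counts. Many loci are listed under more than 1 identifier with the same or nearly the same counts. Counting loci of a class once where totals lay within 2% and counts were almost perfectly correlated left 970 tested, 117 higher and 130 lower.

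snoRNAs guide the chemical modification of rRNA and its processing. They were the class with the most calls: 79 of 318 rose (24.8%) and 48 fell (15.1%), or 67 and 38 with near copies counted once. Over all 1059 loci 12.7% were higher and 14.2% lower. The class median was 0.09 against -0.05 over all 1059 loci. In 25 loci the uvr8-6 libraries lay wholly above those of xpf-3 and in 4 wholly below, where 4.25% of all loci had no overlap in either direction. The snoRNA locus AT2G08760 was at 39.0, 61.3 and 75.7 CPM in xpf-3 and at 189, 231 and 340 CPM in uvr8-6, a log2 difference of 2.13 ± 0.16 (adjusted p = 4.55e-07, edgeR) without overlap. The annotated snoR121 (ENSRNA049495654) was at 1082, 1742 and 2720 CPM in xpf-3 and at 3358, 4673 and 16954 CPM in uvr8-6, again without overlap (1.79 ± 0.27, adjusted p = 0.000197, edgeR). Its highest value was that of replicate 2 of uvr8-6 at the higher dose, and the other uvr8-6 libraries reached 8054 CPM; without that replicate the log2 difference was 1.51. AT1G09333 was higher by 1.78 ± 0.21 and the U3 locus ENSRNA049493776 by 1.70 ± 0.31. U3 guides early cleavage of the rRNA precursor, and of 14 tested U3 loci 6 rose and 1 fell, or 4 and 1 of 12 with near copies counted once. On the lower side, AT1G06277 was at 96.8, 130 and 148 CPM in xpf-3 and at 0, 33.3 and 73.4 CPM in uvr8-6 (-2.14 ± 0.64, adjusted p = 0.0203, edgeR), and snoZ199 (ENSRNA049493585) differed by -1.75 ± 0.31.

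Among rRNA loci 18 of 99 fell (18.2%) and 5 rose (5.05%), against 14.2% and 12.7% of all 1059 loci. Of the 5 higher, 4 were 5.8S entries: AT3G41979 with its near copy ENSRNA049494515 (0.31 ± 0.08) and AT2G01020 with ENSRNA049494585 (0.30 ± 0.08). Without replicate 2 of uvr8-6 at the lower dose the count of higher rRNA loci was 9, and with no low-count filter it was 3, where AT2G01020 and ENSRNA049494585 were not called (adjusted p = 0.0550 and 0.0556, edgeR). The lower loci were mostly of 5S rRNA, made by RNA polymerase III from tandem repeats: 17 of 79 tested 5S loci fell and 1 rose, with a median log2 difference of -0.58. The 5S locus ENSRNA049494225 was at 206, 268 and 601 CPM in xpf-3 and at 60.9, 82.1 and 146 CPM in uvr8-6, without overlap (-1.79 ± 0.23, adjusted p = 5.70e-05, edgeR). These repeats are close copies, so values of single 5S loci are uncertain.

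Of 456 tRNA loci 47 fell (10.3%) and 24 rose (5.26%), both below the shares over all 1059 loci (14.2% lower and 12.7% higher), and the median log2 difference was -0.13. The tRNA-Pro locus ENSRNA049492583 was at 169, 237 and 349 CPM in xpf-3 and at 64.5, 70.2 and 85.9 CPM in uvr8-6, without overlap (-1.79 ± 0.13, adjusted p = 3.34e-07, edgeR). AT2G33950, a tRNA locus, was at 179, 235 and 665 CPM in xpf-3 and at 9.85, 23.5 and 130 CPM in uvr8-6 (-3.19 ± 0.45). AT2G38030 had 0 counts in all uvr8-6 libraries and 1280 in 6 of the 9 libraries of xpf-3, at least 331-fold lower in uvr8-6 against 3 counts over the 9 libraries. That limit covers counting error only. The groups overlapped at 0: xpf-3 had none in replicates 1 and 2 in the dark and replicate 3 at the lower dose, and reached 243 CPM. On the higher side, AT4G12115 differed by 1.61 ± 0.20 and the plastid tRNA-Lys gene TRNK (ATCG00030) by 1.23 ± 0.22, with medians of 813 CPM in xpf-3 and 2001 CPM in uvr8-6.

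snRNA loci were lower in 24 of 97 (24.7%) and higher in 7 (7.22%), or 14 and 4 with near copies counted once. Over all 1059 loci 14.2% were lower and 12.7% higher. Those of U2, which pairs with the intron branch point, fell at 10 of 21 tested loci and rose at 2. With near copies counted once, 8 of 15 fell and 1 rose. U5 (ENSRNA049495710, listed a second time as AT1G05853) was at 56.8, 73.6 and 116 CPM in xpf-3 and at 24.5, 37.5 and 61.3 CPM in uvr8-6, a log2 difference of -0.99 ± 0.15 (adjusted p = 0.000238, edgeR) with slight overlap. U6 at ENSRNA049493744 was instead higher, at 150, 220 and 435 CPM in xpf-3 and 340, 494 and 1148 CPM in uvr8-6 (1.31 ± 0.24). The count of lower snRNA loci was 13 without replicate 2 of xpf-3 in the dark and 15 without replicate 3 of uvr8-6 at the lower dose, and that of higher loci was 11 without replicate 2 of xpf-3 at the higher dose.

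The median rank correlation of a library's miRNA levels with those of the others was 0.895 to 0.924. Replicate 2 of uvr8-6 at the higher dose had the lowest miRNA count (20519), the highest TMM factor for miRNAs (1.18), the lowest for all small RNAs (0.749) and the highest snoRNA share (6.47%). Without it 76 snoRNA loci were called higher and 47 lower. The first principal component of the miRNA levels, with 26.6% of the variance, separated every uvr8-6 library from every xpf-3 library.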

How the data were processed

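Raw read counts per annotated small RNA locus were used as the authors deposited them, from a sheet of all small RNAs (2071 loci) and a sheet of miRNAs (323 loci) that equalled its miRNA part. FastQC and cutadapt are named, per the submitters' processing notes, and a Clontech SMARter small RNA kit, per the labels. Aligner, counter, genome build and handling of reads with several matches: not given in the sources used here. Deposited normalized sheets (272 columns) and the wild-type columns (18) were not used.

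Tests used edgeR 4.0.16 (R 4.3.3). Loci were kept by filterByExpr over the 6 groups (minimum count 10), scaled by TMM and given quasi-likelihood fits with dose and genotype (14 residual degrees of freedom) or, for single doses and their differences, with 6 groups (12). Depth is the sum of counts per library, and CPM used TMM-scaled sums. p-values were adjusted by Benjamini-Hochberg over all loci of a comparison, and the SE is the log2 difference over the square root of F. Shares were tested over all 8000 arrangements within doses (smallest possible p 0.00025). DESeq2 1.42.0, other scalings and filters, and leaving out each library were alternatives. Replicate pairs had a chi-square per degree of freedom of 32.2 or more, so none was a duplicate.

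Named loci were called across doses with at least 10 CPM and the same sign at 3 doses (the 15 highest and 15 lowest), the 5 highest and 5 lowest elsewhere (or the 5 smallest p), called members of 12 lists and the 10 most abundant; not all are printed. Loci without overlap or in identical-sequence groups were also named. The members, the rule and the lists were chosen with earlier results of these data known. Names, mature sequences and coordinates are from RefSeq TAIR10.1, matched by locus for all 97 tested miRNA loci (149 mature sequences). The files give no coordinates.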

Additional observations from a re-analysis of the deposited data

Results flagged for a closer look

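MIR160A was marked because the genotype difference itself changed between dose groups: the difference of uvr8-6 from xpf-3 after the lower dose was lower than that in the dark by -1.69 on the log2 scale (edgeR, adjusted p = 0.0150). The direction was opposite in the 2 groups, with all 3 uvr8-6 libraries above all 3 xpf-3 libraries in the dark and all 3 below them after the lower dose. It is 1 of 97 loci tested, and the call was not made under 4 of the 6 other settings. Its cause was not tested.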

How the results depend on the processing

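Of 131 named results, 118 passed their threshold, and 80 of these did so under every alternative run. None of these named results past its threshold reversed. The snRNA share, which had passed, changed sign as a share outside rRNA loci and did not pass there (0.13 points, adjusted p = 0.869, exact permutation test). Across doses, the miRNA calls numbered 34 to 40 when single libraries were left out. Single-dose counts moved more. With library sizes of all small RNAs 16 miRNAs were called in the dark, 8 after the higher dose and 16 families across doses. With a replicate block within dose the counts were 15 in the dark and 11 after the higher dose, where 11 were called with no low-count filter and 10 from the libraries of that dose only. Without single libraries the counts were 15 to 26 in the dark, 14 to 26 after the lower dose and 7 to 19 after the higher dose. For the change of the genotype difference from the dark to the lower dose, 0 were called with RLE size factors, with library sizes of all small RNAs, with no low-count filter or with a replicate block within dose, 2 with DESeq2, and 0 to 2 without single libraries; to the higher dose, 0 to 3 were called without single libraries.

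Values near 0 changed sign: MIR158A was at 0.0019 and MIR169B at 0.034 (log2) with library sizes of all small RNAs, and MIR169A at -0.071 with no low-count filter. Without single libraries they ranged from -0.15 to 0.030 (MIR158A), -0.21 to 0.093 (MIR169B) and -0.070 to 0.22 (MIR169A). As shares outside rRNA loci, the differences were 0.57 points for miRNA, 0.13 for snRNA, 7.69 for snoRNA and -0.0295 for mitochondrial loci other than rRNA. The last 2 passed the test (adjusted p = 0.0105 and 0.0335, exact permutation test) and the first 2 did not. Without single libraries the share differences ranged from 0.609 to 1.02 points for snoRNA, -0.189 to 0.370 for plastid and -0.400 to -0.241 for mitochondrial loci. The cause of these changes was not tested.

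Replicate numbers did not pair the samples: same-numbered libraries of the genotypes correlated at -0.299 to 0.0905 in their deviations over 9 pairs, 0 of them over 0.1, and 0 of 9 matched their own number best. With the replicate block within dose, 34 miRNAs were called across doses. Scarce loci are limited by depth: MIR2939 rests on 101 counts.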
